A study of Mus musculus with 8 samples.

Results

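The circadian clock genes of the mouse were followed across brain RNA of 8 samples, each hybridised to its own Clariom S expression array. The set is 10 genes: the nuclear receptor genes Nr1d1 and Nr1d2, the period genes Per1, Per2 and Per3, the output regulators Dbp and Tef, the activator gene Clock and the cryptochrome genes Cry1 and Cry2. They were chosen by gene symbol in the array annotation, with 1 row for each gene (the row with the highest mean over the 8 arrays). All 10 had a row, out of 19505 named genes. One value helped choose the set: Nr1d1 was higher on both arrays of water with the tail suspension test than on both arrays of water without it. That contrast is therefore described here without a test for any of the 10 genes, and no test of Nr1d1 is given where a water group enters.

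In the clock, CLOCK pairs with ARNTL (BMAL1) and switches on genes that carry E-boxes in their regulatory DNA, among them the Per and Cry genes, Nr1d1, Nr1d2 and Dbp. PER and CRY proteins then hold this pair back, while the receptors made from Nr1d1 and Nr1d2 (REV-ERB alpha and beta) repress Arntl, Npas2, Nfil3 and other genes with ROR elements. DBP and TEF act on D-boxes, as in Per3. In most mouse tissues Nr1d1, Nr1d2, Dbp, Tef and Per3 peak in the light phase, Per1 and Per2 near its end, and Arntl and Npas2 in the opposite phase. Per1 is also switched on directly by glucocorticoids and by neuronal activity through cAMP elements.

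All mice were males of the outbred ICR strain, bought at 8 weeks of age, acclimatised for 1 week under 12 hours of light and 12 hours of dark, and treated for 7 days. The 4 groups had 2 arrays each: water with the tail suspension test (TST, a stress test in which mice hang by the tail), low-dose rosemary extract (RE) with TST, high-dose RE with TST, and water without TST. RE was given in the drinking water, 10 mg/kg for the low dose. For the high dose the labels disagree, with 100 mg/kg in one field and 50 mg/kg in another, so it is named only as high. Groups follow the titles. A separate field tags the arrays without TST as a positive control and those of water with TST as a negative one, and if these 2 groups were exchanged, the differences between them would change sign, and each extract difference from one of them would be a difference from the other. The protocol put 7 mice in a group, but the labels do not say whether an array holds 1 mouse or a pool, so each p-value reflects only how far these arrays spread, which may be technical. Nor do they say at which hour the tissue was taken, on which the level of a clock gene depends.

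Values are log2 expression values as deposited, with array medians of 7.45 to 7.51. They reach 19.79, and 1359 of them exceed 16, the limit of a 16-bit scanner, so a log2 difference is one of the deposited scale. They come without detection calls, and precision is limited by how few arrays there are. Of the arrays, the one least like the rest was water with TST replicate 2, with correlations of 0.967 to 0.978 to the other arrays, against 0.983 to 0.993 among those. The mean of 10 measured cerebellar markers, of 12 listed, exceeded its 8-array mean by 4.47 there and, on replicate 1 of water without TST, by 2.54. It lay between -1.51 and -0.515 on the other 6. Gabra6, which cerebellar granule cells use as a GABA receptor subunit, was at 16.37 and 14.31 there, and between 4.69 and 8.42 on the other 6. The labels name limbic system and, in another field, hippocampus. The mean of 7 measured hippocampal markers was -1.04 on water with TST replicate 2, relative to its 8-array mean, and -0.242 or more on the rest. That of 8 measured forebrain markers was -1.91 there and -0.262 or more on the rest. Neurod6, on both lists, was at 8.71 there and between 11.80 and 13.26 on the rest. The hippocampal marker Prox1 (11.24) and the forebrain marker Neurod2 (9.38) were instead highest on that array. The mean of 7 measured striatal markers, of 9 listed, was highest on replicate 2 of water without TST. It was 1.89 above the 8-array mean there, against 0.178 or less on the other arrays. The mean of 10 measured hypothalamic markers, of 11 listed, was also highest on that array, at 0.892 against 0.162 or less. Of these, Pmch (11.81), Oxt, Avp, Six3 and Trh were highest there, while Vip, Six6, Lhx1, Hcrt and Pomc were highest on other arrays. Of the markers that the suprachiasmatic nucleus, the central clock, shares with other brain regions, Six6 was between 3.46 and 4.20 on all 8 arrays, while Vip was between 7.53 and 10.39. Of 6 thalamic markers, 5 (Tcf7l2, Prkcd, Rgs16, Synpo2 and Lef1) were higher on all 4 extract arrays than on all 4 water arrays, against 1.8% of all 22206 rows, a grouping chosen after the data were seen. The remaining marker, Calb2, was between 11.36 and 11.66 on the extract arrays. It was at 11.29 and 14.19 on water with TST, and at 12.92 and 12.40 on water without TST. In such bulk RNA, fewer cells of a type and less RNA per cell cannot be told apart.

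Promoters are shown for the genes on which the results turn: those whose arrays with TST all lay on one side of water without TST (Nr1d1, Per1, Cry2 and, outside the 10 genes, the repressor gene Ciart and Arntl), and the 2 members that passed the study's threshold, a fold change above 1.2 with an unadjusted p under 0.05, between an extract dose and water, both with TST (Per3 and Cry1). The stretches are from RefSeq, build GRCm38.p6, 5′ to 3′ on the gene's strand, and end at the base before the transcription start (the Arntl stretch lies after it). Capitals mark a match on either strand to the E-box CACGTG, the E′-box CACGTT (read as AACGTG on the other strand), the D-box TTATGTAA or, in Arntl, the ROR element letters TAGGTCA. A match is a description of the letters in these windows.
Nr1d1, chr11:98775378-98775627, minus strand: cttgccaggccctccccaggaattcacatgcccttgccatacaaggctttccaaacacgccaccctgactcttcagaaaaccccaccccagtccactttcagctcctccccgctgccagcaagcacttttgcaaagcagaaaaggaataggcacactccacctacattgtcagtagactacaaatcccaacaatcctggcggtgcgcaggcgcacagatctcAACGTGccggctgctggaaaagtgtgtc
Per1, chr11:69098699-69098948, plus strand: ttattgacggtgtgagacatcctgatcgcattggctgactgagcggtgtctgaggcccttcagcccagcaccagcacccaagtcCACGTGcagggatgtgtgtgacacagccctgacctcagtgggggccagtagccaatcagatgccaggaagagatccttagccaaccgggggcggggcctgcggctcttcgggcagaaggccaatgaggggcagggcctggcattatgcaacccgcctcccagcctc
Cry2, chr2:92434070-92434319, minus strand: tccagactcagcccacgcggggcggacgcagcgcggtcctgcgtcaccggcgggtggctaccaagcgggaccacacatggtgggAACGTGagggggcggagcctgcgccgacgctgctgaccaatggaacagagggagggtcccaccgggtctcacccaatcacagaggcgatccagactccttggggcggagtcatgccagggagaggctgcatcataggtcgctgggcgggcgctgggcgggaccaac
Ciart, chr3:95882229-95882478, minus strand: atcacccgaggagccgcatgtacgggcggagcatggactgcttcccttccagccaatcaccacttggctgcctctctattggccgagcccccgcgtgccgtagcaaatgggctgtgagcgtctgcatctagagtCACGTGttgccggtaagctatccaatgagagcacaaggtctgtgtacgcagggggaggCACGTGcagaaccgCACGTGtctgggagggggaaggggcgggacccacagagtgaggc
Per3, chr4:151044666-151044915, minus strand: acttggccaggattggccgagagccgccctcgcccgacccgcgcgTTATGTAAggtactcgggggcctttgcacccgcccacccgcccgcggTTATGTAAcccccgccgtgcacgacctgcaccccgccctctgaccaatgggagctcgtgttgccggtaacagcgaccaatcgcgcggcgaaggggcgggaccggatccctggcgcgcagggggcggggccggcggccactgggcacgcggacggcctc
Cry1, chr10:85185055-85185154, minus strand: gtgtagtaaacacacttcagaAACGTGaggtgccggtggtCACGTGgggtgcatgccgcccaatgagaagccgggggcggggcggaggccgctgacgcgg
Arntl, chr7:113207531-113207557, plus strand: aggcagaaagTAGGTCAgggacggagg

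Of the 10 genes, 9 had a window of 250 bases before to 50 after a start in this table, and Per2 had none. An E-box stood in 3 of the 9 (Per1, Tef and Cry1), an E′-box in 3 (Nr1d1, Cry1 and Cry2) and a D-box in 1 (Per3, which has it at 205 and 158 bases before the start). Of all 32851 windows in the table, 7.15% held the E-box, 4.68% the E′-box and 0.938% this D-box, while the second D-box spelling searched, TTACGTAA, was in 0.119%. These shares are of windows, whereas the counts are of genes with a match in any of their windows. Ciart had 3 E-boxes, at 116, 58 and 44 bases before its start. The ROR element letters (TAGGTCA in 2.61% and TGGGTCA in 3.98% of all windows) were in none of the 9, and the first spelling stood in Arntl, 31 bases after the transcription start in the second of its 2 windows, and in Nfil3. The cAMP element TGACGTCA (1.79% of all windows) was in none of the 9 and in Hlf. Its shorter core TGACG, which overlaps it and was in 20.8% of all windows, was in Per1, Cry1 and Cry2.

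The first comparison asked how clock genes differed after TST in mice given water. Nr1d1, whose REV-ERB alpha protein represses Arntl, was at 12.67 and 12.91 on the water with TST arrays, 12.47 and 12.23 on low-dose RE and 11.95 and 12.45 on high-dose RE, both with TST, and 11.84 and 11.61 on water without TST. All 6 arrays with TST thus lay above both without it, with water and TST highest. The water groups differed by 1.065 (standard error, SE, 0.262 in the limma fit, n = 2 arrays each), which chose the set and is a description. The water groups each held 1 of the arrays high in cerebellar markers. Between those, water with TST replicate 2 minus water without TST replicate 1, Nr1d1 differed by 1.07, and between the other pair by 1.06. The array without TST in that other pair is the one with the highest means of striatal and hypothalamic markers, at 1.89 and 0.892, against 0.178 and -0.169 on its water with TST partner. Without that array the water groups differed by 0.95 in Nr1d1, and without the other array of water without TST by 1.18. The choice of the set made all of these Nr1d1 differences positive, so nothing is read from their sign or their likeness. The part of the regional markers in these differences was not tested.

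Per1, the period gene that stress hormones and neuronal activity can switch on, was at 9.61 and 9.44 on water with TST, 9.45 and 9.41 on low-dose RE, 9.52 and 9.58 on high-dose RE, and 9.07 and 9.0 on water without TST. Every array with TST was thus at least 9.41 and no array without it was above 9.07. Cry2, a cryptochrome that holds back the CLOCK and ARNTL pair, showed the same split on a smaller scale. It was at 13.02 and 12.87 on water with TST, 13.10 and 13.02 on low-dose RE, 12.92 and 13.16 on high-dose RE, and 12.68 and 12.72 on water without TST. Without replicate 2 of water without TST, high in striatal markers, the water groups differed by 0.455 in Per1 and 0.265 in Cry2, against 0.49 and 0.245 with it.

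**Figure D1:**
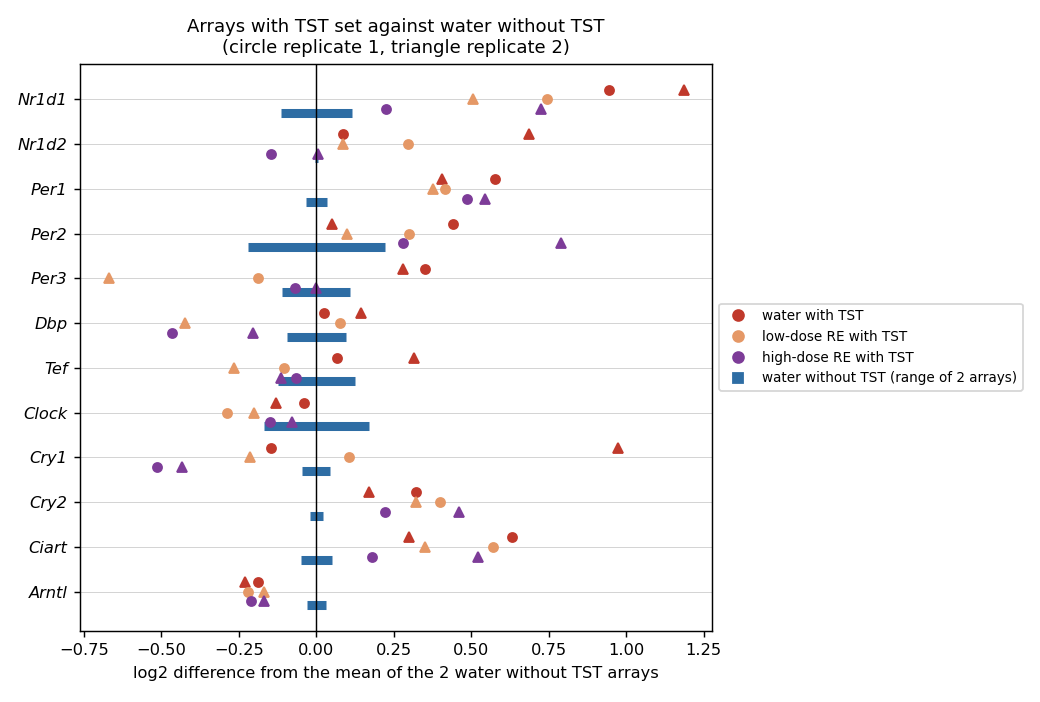
The log2 difference of each array with TST from the mean of the 2 water without TST arrays is plotted for the 10 clock genes and for Ciart and Arntl, with colours for groups and a blue bar for the range of the 2 arrays without TST. Nr1d1, Per1, Cry2 and Ciart have all 6 arrays with TST to the right of the bar and Arntl has all 6 to its left, while the other genes have arrays on both sides of it or within it.

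In the pairs that chose the set, 5 of the 10 genes had arrays that did not overlap and were higher with TST (Nr1d1, Nr1d2, Per1, Per3 and Cry2), where 14.2% of all 22206 rows were, and 0 of 10 were lower without overlap, where 13.3% of rows were. The set was chosen on this contrast, and nothing is read from these counts. With all 6 arrays with TST set against both without it, a grouping chosen after the data were seen, 3 of 10 genes (Nr1d1, Per1 and Cry2) were higher without overlap, against 3.35% of rows. The choice of the set fixed the water part of this order for Nr1d1, so nothing is read from its place in the count. None of the 10 was lower without overlap, against 2.49% of rows. Means with TST exceeded those without by 0.722 for Nr1d1, 0.467 for Per1 and 0.315 for Cry2 (n = 6 and 2 arrays).

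The other 7 genes did not separate in this way. Nr1d2, the REV-ERB beta gene, was at 13.09 and 13.69 on water with TST, 13.30 and 13.09 on low-dose RE, 12.86 and 13.01 on high-dose RE, and 13.01 and 13.00 on water without TST. Its high value was on water with TST replicate 2, and without that array the water groups differed by 0.085 in place of 0.385. Dbp, a D-box activator with one of the strongest daily rhythms in mouse tissues, was at 16.03 and 16.15 on water with TST, 16.08 and 15.58 on low-dose RE, 15.54 and 15.80 on high-dose RE, and 15.91 and 16.10 on water without TST. The 2 arrays of water without TST lay within the range of the others, and 4 of the 8 Dbp values exceed 16. Tef, a second D-box activator, was below the array median on all 8 arrays, at 6.74 and 6.99 on water with TST, 6.57 and 6.41 on low-dose RE, 6.61 and 6.56 on high-dose RE, and 6.55 and 6.80 on water without TST. The water with TST pair lay above both extract groups, and all 3 groups with TST overlapped with water without TST.

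Per2, which is induced by light and hormones as well as by the clock, was at 8.58 and 8.19 on water with TST, 8.44 and 8.24 on low-dose RE, 8.42 and 8.93 on high-dose RE, and 8.36 and 7.92 on water without TST. The high-dose pair lay above both water without TST arrays, while the other groups with TST overlapped with them, and replicates differed by up to 0.51. Clock, whose own rhythm is weak in most tissues, was between 14.43 and 14.68 on the 6 arrays with TST, and at 14.89 and 14.55 on those without, and only the low-dose pair lay below both of the last. Cry1, a cryptochrome gene whose rhythm runs later than that of the Per genes, was at 8.58 and 9.70 on water with TST, 8.83 and 8.51 on low-dose RE, 8.21 and 8.29 on high-dose RE, and 8.68 and 8.77 on water without TST. The value of 9.70 was on the array highest in cerebellar markers. Without that array the water groups differed by -0.145 in Cry1, against 0.415 with it, and the part of those markers in the difference was not tested.

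**Figure D2:**
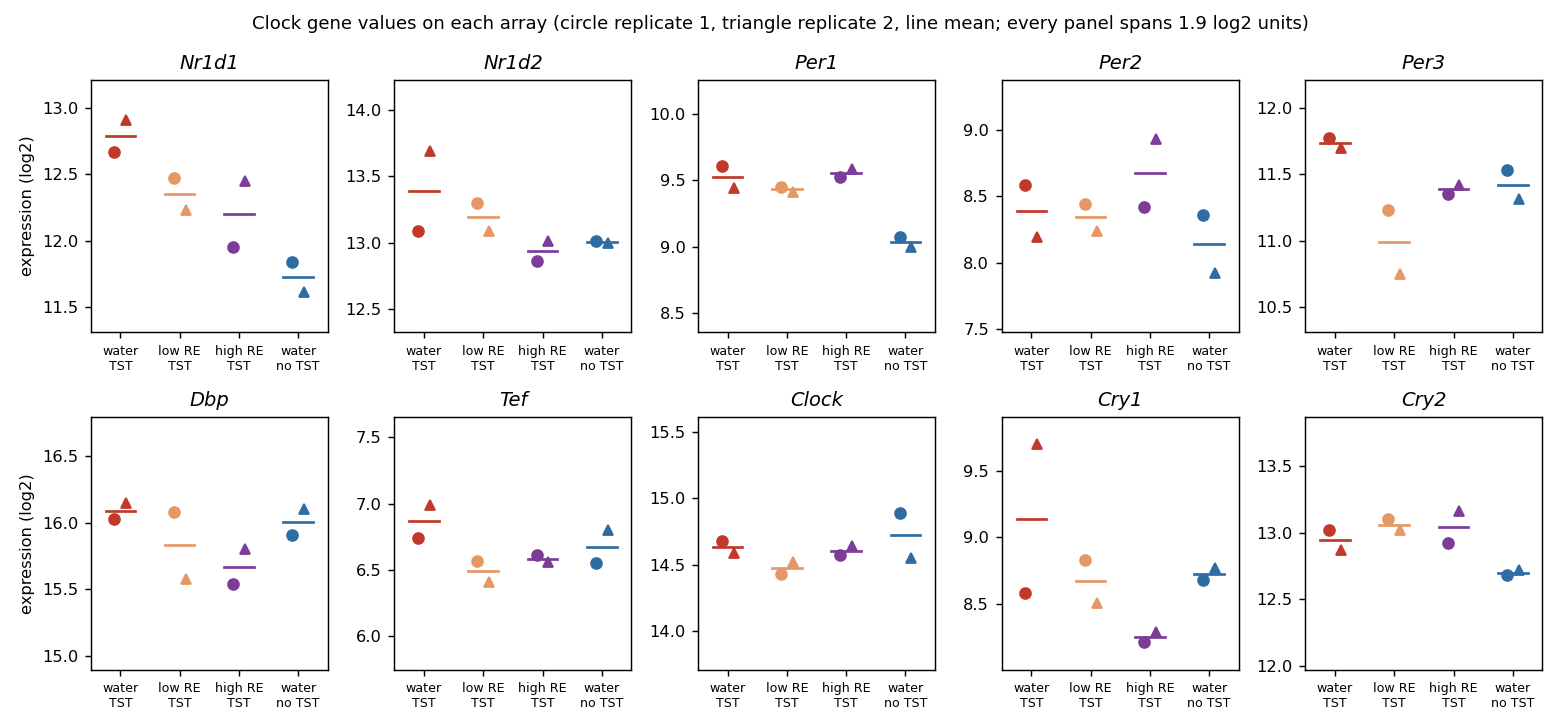
Expression values (log2) of the 10 clock genes are plotted by group, with a circle for replicate 1, a triangle for replicate 2 and a line for the group mean; each panel spans the same height. Nr1d1, Per1 and Cry2 have both water without TST arrays below all arrays with TST, and Cry1 has 1 array, water with TST replicate 2, far above the rest.

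The comparisons of extract groups with water without TST share only that water pair with the TST contrast of the water groups. All extract arrays also had TST, and no group had extract without TST. A difference here may thus be of extract, of TST or of both, which cannot be told apart. Against water without TST, Per1 was 0.515 higher with high-dose RE (SE 0.214, fold 1.43, unadjusted p = 0.0418, limma adjusted p = 1, n = 2 each), and 0.395 higher with low-dose RE (SE 0.214, unadjusted p = 0.101, limma adjusted p = 0.998). Per1 was the only one of the 9 genes tested past the study's threshold with the high dose, against 1.97% of rows, and 0 of 9 passed with the low dose, against 3.15% of rows. Without low-dose RE replicate 1, Per3 passed with the low dose, at -0.67. By the methods' analysis of variance on the 4 arrays compared, Per1 and Cry2 passed with the low dose and Per1 and Cry1 with the high dose. The limma call for Per1 was lost without either water array (0.55 without replicate 1 and 0.48 without replicate 2), without either high-dose array (0.545 and 0.485), with a replicate block (unadjusted p = 0.059 by limma) and with a variance trend (unadjusted p = 0.0505 by limma). Nr1d1 was 0.625 higher with low-dose and 0.475 higher with high-dose RE (SE 0.262 each), given without a test since the same water arrays helped choose the set. Cry2 was 0.36 and 0.34 higher (SE 0.221), not past the threshold in the limma fit, with 95% intervals of -0.146 to 0.866 and -0.166 to 0.846.

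The next comparison set each extract dose against water, all with TST. The mean of the 6 thalamic markers was 0.784 and 0.377 on low-dose RE and 0.269 and 0.494 on high-dose RE relative to its 8-array mean, against -0.0981 and -1.12 on water with TST, and it was -0.332 and -0.375 on water without TST. The 4 extract arrays thus lay above the 4 water arrays, and the part of thalamic content in the differences of the extract groups from water was not tested. Per3, a period gene driven through D-boxes and E-boxes, fell at the study's threshold with low-dose RE. It was at 11.23 and 10.75 on the low-dose arrays, against 11.77 and 11.70 on water with TST. High-dose arrays were at 11.35 and 11.42, and water without TST at 11.53 and 11.31. Low-dose RE replicate 2 was thus the lowest of all arrays. The difference was -0.745 (SE 0.247, fold 1.68, unadjusted p = 0.0159, limma adjusted p = 0.946, n = 2 each), and it was the only call among the 9 genes tested, against 3.54% of rows. Without low-dose RE replicate 2 it was -0.505 and no longer past the threshold. Nor did it pass in the fit of only the groups compared (unadjusted p = 0.0544 by limma) or by the methods' analysis of variance.

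With high-dose RE, 1 of the 9 genes tested passed, against 3.17% of rows. Cry1 fell by 0.89 on the log2 scale against water with TST (SE 0.355, fold 1.85, unadjusted p = 0.0356, limma adjusted p = 0.973, n = 2 each). This rests on water with TST replicate 2. Without that array the difference was -0.33 and not past the threshold, and without replicate 1 of that group it was -1.45. The call was also lost, at -0.85 and -0.93, without high-dose RE replicate 1 and replicate 2, and at -0.89 without either water without TST array, in the fit of only the groups compared and by the methods' analysis of variance. Without water with TST replicate 1, the array highest in cerebellar markers is the only one of its group, and 3767 rows with the low dose and 3785 with the high dose passed, 17% of all rows. Among these were Cry1 with the low dose (-1.03) and Nr1d2 with the high dose (-0.755).

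Nr1d1 was lower in both extract groups than in water with TST, by values of -0.44 for the low and -0.59 for the high dose (SE 0.262), given without a test. Nr1d2 had differences of -0.195 and -0.455 (SE 0.263), Dbp of -0.26 and -0.42 (SE 0.256) and Tef of -0.375 and -0.28 (SE 0.23), low dose before high dose, with no call. The sign of Nr1d2 with the low dose turned without water with TST replicate 2, to 0.105. Per1 was at -0.095 and 0.025 (SE 0.214) and Cry2 at 0.115 and 0.095 (SE 0.221). Over the 10 genes the median difference was -0.228 with the low dose, 9 of them lower, and -0.315 with the high dose, 7 of them lower. The median of all 22206 rows was 0.015 and 0.01, and 52.1% and 51.4% of rows were higher. Nr1d1 is among the genes counted as lower, and its high values on water with TST helped choose the set. Both dose comparisons and the TST contrast use the same water with TST arrays, so these values are not independent of each other.

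**Figure D3:**
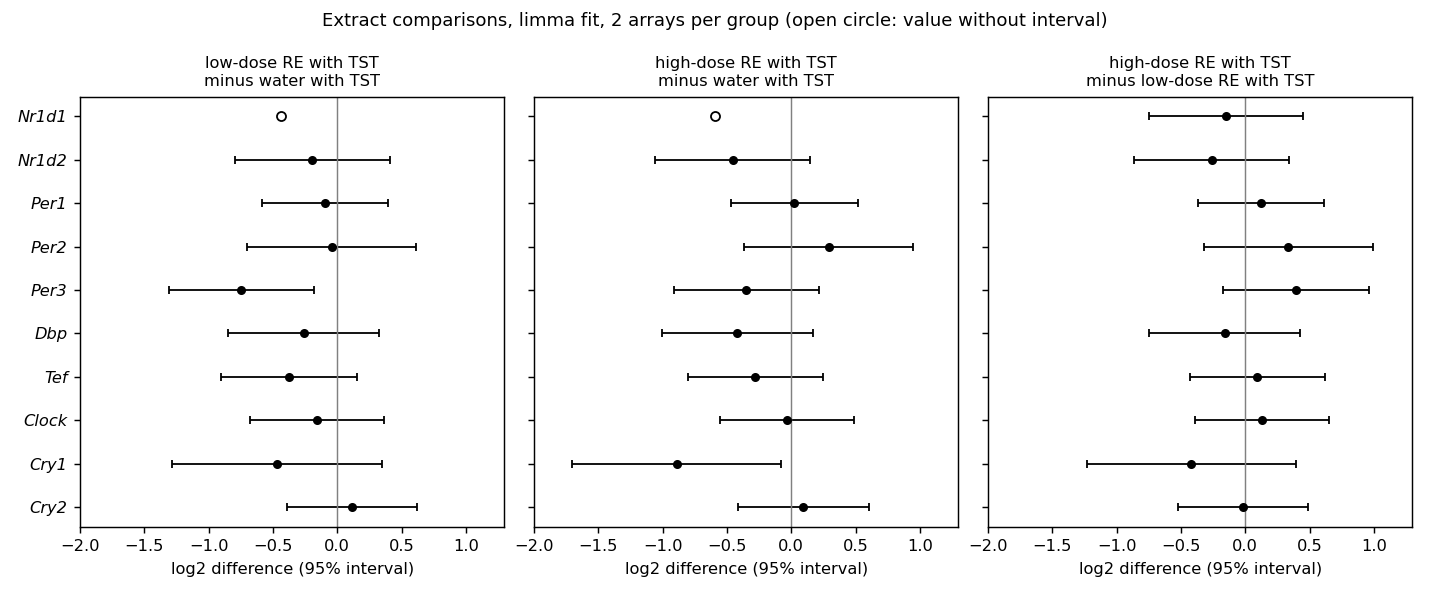
Log2 differences with 95% intervals from the limma fit are plotted for the 10 genes in 3 comparisons of the extract groups, with an open circle and no interval for Nr1d1 where water with TST enters. Only Per3 with low-dose RE and Cry1 with high-dose RE have intervals that leave out 0, and in the comparison of the doses every interval holds 0.

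Between the doses, which involve no array that chose the set, 0 of the 10 genes passed the study's threshold by limma, against 1.91% of rows, and 0 of 10 by the methods' analysis of variance. The difference of high minus low dose was -0.15 for Nr1d1 (SE 0.262, 95% interval -0.751 to 0.451), 0.395 for Per3 (SE 0.247, -0.171 to 0.961) and -0.42 for Cry1 (SE 0.355, -1.234 to 0.394). For Per1 it was 0.12, with an interval of -0.371 to 0.611. Without low-dose RE replicate 1 Per3 differed by 0.635 and passed. In none of the 5 comparisons with an extract group did a tested gene of the set reach an adjusted p under 0.05 by limma, and 0% of rows did in each of the 6 comparisons. In those 6 comparisons 425 to 787 rows had an unadjusted p under 0.05 by limma, and by the methods' analysis of variance 619 to 1281 had one and 0 passed after adjustment.

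To ask whether the genes moved in a phase-like way, those that peak in or at the end of the light phase were set against those of the opposite phase. The light-phase list held 11 genes, the members Nr1d1, Nr1d2, Dbp, Tef, Per1, Per2 and Per3 with Hlf, Ciart, Bhlhe41 and Usp2. The opposite list held 5, Clock and Cry1 with Arntl, Npas2 and Nfil3. Ciart, a repressor driven by E-boxes, was at 10.14 and 9.81 on water with TST, 10.08 and 9.86 on low-dose RE, 9.69 and 10.03 on high-dose RE, and 9.56 and 9.46 on water without TST. Arntl, the partner of Clock and a target of REV-ERB alpha, was at 10.91 and 10.87 on water with TST, 10.88 and 10.93 on low-dose RE, 10.89 and 10.93 on high-dose RE, and 11.13 and 11.07 on water without TST. Ciart was thus higher and Arntl lower on all 6 arrays with TST, with differences of 0.425 and -0.198 between the means. Of the 20 measured clock genes outside the set, Ciart was the only 1 higher without overlap, against 3.35% of rows. Arntl was the only 1 lower, against 2.49% of rows, and nothing is read from these counts. Neither gene passed the study's threshold in any of the 6 comparisons. For water with TST minus water without, Ciart was at 0.465 (SE 0.246, unadjusted p = 0.0941 by limma) and Arntl at -0.21 (SE 0.21, unadjusted p = 0.345 by limma).

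Over both lists, 3 of the 11 light-phase genes (Nr1d1, Per1 and Ciart) were higher on all 6 arrays with TST, against 3.35% of rows, and 1 of the 5 opposite-phase genes (Arntl) was lower on all 6, against 2.49% of rows. The other 8 light-phase genes, Dbp with its strong daily rhythm among them, and the other 4 opposite-phase genes did not separate in these directions. The place of Nr1d1 in the light-phase count was fixed in part by the choice of the set, and nothing is read from it. Between the water pairs alone, the contrast that chose the set, 6 of 11 light-phase genes were higher and 1 lower without overlap, against 14.2% and 13.3% of rows, and of the 5 opposite-phase genes 0 were higher and 1 was lower. Cry2 is on neither list. Hlf, another D-box activator, was at 12.04 and 10.71 on water with TST, against 11.16 and 11.38 without. Npas2, which can stand in for Clock, was at 10.79 and 7.82 on water with TST, against 10.32 and 11.17 without. Nfil3, the D-box repressor, was at 6.76 and 7.56 on water with TST, against 7.08 and 6.59 without. The low Npas2 and Hlf values were both on replicate 2 of water with TST, the array highest in cerebellar markers, and the part of those markers in them was not tested.

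Since Nr1d1, which chose the set, is on the first list, the lists are described without a test. A phase contrast was taken for each array as the mean of the light-phase genes minus the mean of the opposite-phase genes, each gene centred on its 8-array mean. It was 0.239 and 0.371 on water with TST, 0.115 and -0.317 on low-dose RE, -0.0943 and 0.179 on high-dose RE, and -0.186 and -0.307 on water without TST. The water groups did not overlap and both extract groups had 1 array above and 1 below 0. The water values of Nr1d1, which chose the set, enter this contrast, and it was not computed without Nr1d1. Nothing is therefore read from the order of the water groups or from the size of their difference. The group means differed from water without TST by 0.551 for water with TST, 0.146 for low-dose RE and 0.288 for high-dose RE, where the pooled standard deviation within groups was 0.191. With medians over the listed genes in place of means, the differences were 0.444 for water with TST, 0.218 for low-dose RE and 0.139 for high-dose RE, so the order of the doses turned. Without Npas2 the contrast was 0.345 and -0.207 on water with TST, against -0.216 and -0.127 on water without, so that those groups overlapped and their means differed by 0.241. Without both arrays high in cerebellar markers, which left 1 array in each water group, the water groups differed by 0.545. For low-dose RE the difference was -0.0705 without replicate 1 and 0.361 without replicate 2.

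**Figure D4:**
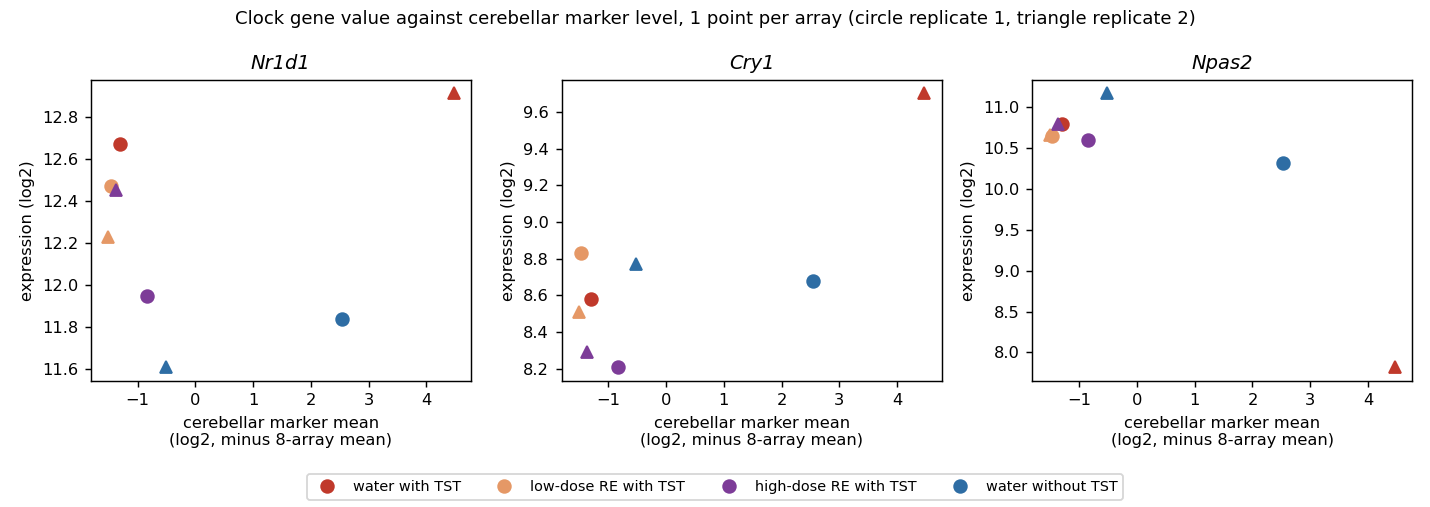
Expression values (log2) of Nr1d1, Cry1 and Npas2 are plotted against the mean of 10 cerebellar markers, with 1 point for each array and colours for groups. The arrays high in these markers (replicate 2 of water with TST and replicate 1 of water without it) differ by 1.07 in Nr1d1. The choice of the set fixed the sign of that difference. The first of these arrays is the highest in Cry1 and the lowest in Npas2.

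Of the 22 other clock genes listed, 20 had a named row. In the comparison of low-dose RE with water, both with TST, 1 of the 20 passed the study's threshold, against 3.54% of rows, Rorb, the gene of an activator at ROR elements, at 1.515 (SE 0.612, unadjusted p = 0.0373, limma adjusted p = 0.946). Its value was 10.60 on water with TST replicate 2 and between 12.49 and 13.33 on the other 7 arrays. Without that array the difference was 0.355 and did not pass. The call was kept under 4 of 15 alternatives, and lost with any low-dose RE, high-dose RE or water without TST array left out. In the row used, Rorb was also higher on all 4 extract arrays than on all 4 water arrays, as 5 of the 6 thalamic markers were, against 1.8% of rows. Its other row did not separate. That row was at 11.23 on water with TST replicate 1, against 10.82 on low-dose RE replicate 2 and 10.91 on high-dose RE replicate 1. In each of the other 5 comparisons 0 of the 20 passed, for water with against without TST against 2.55% of rows. Bhlhe41, a repressor at E-boxes, lay between 11.61 and 12.22 on all 8 arrays. It was at 12.08 and 12.00 on water with TST, against 12.11 and 12.10 on water without TST. It is the light-phase gene counted above as lower between the water pairs.

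The genes most like Nr1d1 over the 8 arrays, among 10194 genes above the median level, were Sec24b, a coat protein of secretory vesicles (r = 0.96), the insulin receptor gene Insr (r = 0.957), Mettl15 (r = 0.955), Pdp2 (r = 0.946) and Tubgcp5 (r = 0.945). Most opposite were Khk, the fructose kinase gene (r = -0.939), Plxna3 (r = -0.932), the chaperone gene Hspa5 (r = -0.925), Sgcd (r = -0.913) and the neurokinin receptor gene Tacr3 (r = -0.912). None of these is a clock gene of the lists used here. Among clock genes, r with Nr1d1 was 0.785 for Ciart, 0.737 for Per1, 0.729 for Nr1d2, 0.598 for Cry2, 0.302 for Dbp, 0.335 for Tef and -0.748 for Arntl. It was 0.472 for Cry1, 0.4085 for Per2, 0.362 for Per3 and -0.189 for Clock. Leaving out the 2 arrays farthest from the median of Nr1d1 gave r = 0.855 for Npas2, against -0.593 over all 8. For Hlf it gave 0.933, against 0.143, for Ciart 0.991, for Nr1d2 0.58 and for Arntl -0.607. For the mean of Nr1d1, Nr1d2, Dbp, Tef and Per3, the closest of 10191 genes were Slc13a3, a dicarboxylate transporter gene (r = 0.981), the ceramide synthase gene Cers2 (r = 0.97), Ptpn2 (r = 0.968), Tmem164 (r = 0.965) and Zfp146 (r = 0.963). The most opposite were Stac3 (r = -0.962), Cfap206 (r = -0.955), Pnma1 (r = -0.954), Fsip1 (r = -0.95) and Borcs7 (r = -0.945). These r describe 8 arrays that share 4 groups and, in part, cerebellar content, and the extremes are the ends of a ranking. The Nr1d1 values on the water arrays also helped choose the set, so a gene split by the water groups gains in r.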

How the data were processed

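RNA of mouse brain was hybridised to Clariom S arrays, 1 for each of 8 samples, whose titles give group and replicate number. Per the series' design text, the authors normalized the arrays with the robust multichip average in Transcriptome Analysis Console 4.0.1; the deposited log2 values were used as given. The labels name no genome build for the array. Array annotation named 19572 of 22206 rows, all with 1 symbol.

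A group-means model was fitted to all rows and all 8 arrays with limma 3.58.1 in R 4.3.3 (lmFit, eBayes; 4 residual and 4.3 prior degrees of freedom) and tested on simulated data. All p-values are two-sided and were adjusted by Benjamini-Hochberg across the 22206 rows. A call at the study's threshold needs a fold above 1.2 (log2 0.263) and an unadjusted p under 0.05. Other settings tried were the methods' analysis of variance, each array left out, every row of a gene, quantile normalization, the dimmest 25% of rows removed, robust estimation with a variance trend, the compared groups alone, and replicate number as a block. Leaving out both arrays high in cerebellar markers, leaving out Npas2, the grouping of all arrays with TST and that of extract against water arrays were added after the data were seen. Where an array is left out, the lone array of its group is assumed to vary like the others.

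The 10 genes and all lists were chosen with earlier results of these data known. All 10 genes are reported whatever their values. Other clock genes are named where they passed the threshold, and Arntl, Npas2, Nfil3, Hlf, Ciart and Bhlhe41 always; genes like Nr1d1 are the 5 highest and 5 lowest correlations among genes whose highest group mean is above the median, without predicted loci and receptor or small RNA families.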

Additional observations from a re-analysis of the deposited data

How the results depend on the processing

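Of the members past the study's threshold, Cry1 with high-dose RE against water with TST was lost (0 genes) in the fit of only the groups compared and without both arrays high in cerebellar markers; the methods' analysis of variance also called 1 gene, but Per3. Per3 with low-dose RE against water with TST was lost (0 genes) in the fit of only the groups compared and by the analysis of variance. For high-dose RE against water without TST the count of 1 gene became 0 with the replicate block, with the variance trend and without both arrays high in cerebellar markers, and 2 in the fit of only the groups compared and by the analysis of variance. For low-dose RE against water without TST the analysis of variance called 2 in place of 0. For water with against without TST, which chose the set, no calls were counted under any setting. With 1 array left out the counts ran from 0 to 2 for either dose against water with TST, and 0 to 1 for the doses compared and for either dose against water without TST. In those fits 1 tested member, Cry1, passed an adjusted p by limma, for high-dose RE against water with TST without water with TST replicate 1, where the array highest in cerebellar markers is the only one of its group and 928 rows (4.18%) passed. The phase contrast of water with minus water without TST was 0.241 without Npas2 and 0.444 with medians. It was 0.545 without both arrays high in cerebellar markers and 0.485 to 0.617 with 1 array left out. That of low-dose RE ran from -0.0705 to 0.361 and that of high-dose RE from 0.152 to 0.425. Taking every row of a member changed no count, since each has 1 row. Replicate numbers did not pair the samples: deviations of same-numbered arrays correlated at -0.293 to 0.169 over 6 pairs of groups. With the replicate block 402 to 702 rows passed, against 425 to 787, and it changed no other call for the 10 genes. The cause of these changes was not tested.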

Other observations

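Genes switched on by glucocorticoids or by neuronal activity were set beside Per1, which answers to both. Of 7 such genes, 4 passed the study's threshold by limma with high-dose RE and TST against water without TST: Fos at 1.41 (SE 0.331), Nr4a1 at 1.49 (SE 0.489), Sgk1 at 1.01 (SE 0.383) and Dusp1 at 0.92 (SE 0.384), against 1.97% of rows. With low-dose RE and TST 1 of 7 passed, Nr4a1 at 1.275 (SE 0.489), against 3.15% of rows, and for water with against without TST also 1, Dusp1 at 1.055 (SE 0.384), against 2.55% of rows. Dusp1, a phosphatase of MAP kinases, was at 13.39 and 14.17 on water with TST, 13.42 and 12.92 on low-dose RE, 13.18 and 14.11 on high-dose RE, and 12.74 and 12.71 on water without TST. Fos, an immediate early transcription factor, was at 8.02 and 8.06 on water with TST, 8.13 and 7.93 on low-dose RE, 8.61 and 9.60 on high-dose RE, and 7.56 and 7.83 on water without TST. Both thus had all 6 arrays with TST above both without, as Per1 had, against 3.35% of rows. Egr1, Sgk1 and Nr4a1 did not separate in this way. Egr1 was at 13.73 and 11.06 on water with TST, against 12.87 and 13.24 without. Sgk1 was at 11.31 and 10.05, against 10.92 and 10.58, and Nr4a1 at 10.39 and 9.03, against 9.72 and 9.32. Against water with TST, 3 of the 7 passed with high-dose RE (Sgk1 at 1.08, Fos at 1.065 and Nr4a1 at 1.3), against 3.17% of rows. Without water with TST replicate 2, the array highest in cerebellar markers, Sgk1 was at 0.45 and Nr4a1 at 0.62 and neither passed, and without high-dose RE replicate 2 Fos was at 0.57 and Nr4a1 at 0.9 and neither passed. Sgk1 was lost there without either high-dose array, at 1.13 and 1.03. Against low-dose RE 2 passed with high-dose RE (Sgk1 at 1.135 and Fos at 1.075), against 1.91% of rows, and low-dose RE against water with TST had 0, against 3.54% of rows. In the comparison of the doses Sgk1 was lost without any 1 of the 4 arrays, at 1.085 to 1.185, and Fos without replicate 2 of either dose, at 0.975 for the low and 0.58 for the high dose. The methods' analysis of variance called neither Fos, Nr4a1 nor Dusp1 in the comparisons where limma did, and Fos against water without TST was lost under that alternative only, of 15. Against water without TST, the high-dose calls were lost without high-dose RE replicate 2 for Dusp1 (0.455), Nr4a1 (1.09) and Sgk1 (0.96), without replicate 1 of that dose for Sgk1 (1.06), without water replicate 2 for Sgk1 (0.84) and Nr4a1 (1.29), and for Dusp1 also without either water (0.935 and 0.905) or low-dose array (0.92). The low-dose call of Nr4a1 was lost without either water array (1.475 and 1.075) and without low-dose RE replicate 2 (0.89). Dusp1 in the water groups was lost without water with TST replicate 2, at 0.665, and without either water without TST array. The glucocorticoid targets Fkbp5 and Tsc22d3 did not separate by TST: Fkbp5 was at 12.11 and 10.32 on water with TST, against 11.78 and 11.98 without, and Tsc22d3 at 11.73 and 11.76, against 11.79 and 11.63. The adjusted p of these 7 genes was 0.946 or higher in each of the 6 comparisons by limma.

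Rora, an activator at ROR elements, had 3 rows. Water with TST replicate 2, the array highest in cerebellar markers, was the highest in all 3, at 13.63, 14.03 and 11.94, and Rorb was lowest there in both of its rows, at 8.72 and 10.60.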
